A study of Mus musculus with 2 samples.

Results

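Macrophage markers and the Csf1 axis are described here in the skin of newborn mice that lack keratin 5. The set holds 10 genes: the growth factor gene Csf1, its receptor gene Csf1r, the complement genes C1qa, C1qb and C1qc, the surface receptor genes Adgre1, Mrc1 and Cd14, the lysosomal marker gene Cd68 and the lysozyme gene Lyz2. Its members were every probe set that the platform annotation gives exactly 1 gene symbol, where that symbol is one of these genes. They came to 15 probe sets of 10833 with 1 symbol, and to 10 genes of 8251. RNA of 6 newborn K5-/- (keratin 5 knockout) mice was pooled and read on 1 array, and RNA of 6 newborn wild type mice was pooled and read on 1 other array. The labels give no strain, sex or treatment. They call the source epidermis but name skin in the titles and the protocol, which describes no separation of the epidermis, so it is called skin here. The series asked which genes, inflammatory cytokines above all, differ in this mouse model of the blistering disorder epidermolysis bullosa simplex.

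Macrophages are phagocytes that sit in the dermis from before birth and clear dead cells, debris and microbes. Their survival and growth depend on the receptor tyrosine kinase Csf1r, which binds the secreted factor Csf1, and macrophages in turn make the C1q chains that start the classical complement pathway. The transcription factor PU.1 (gene Spi1) is needed for the macrophage fate and binds the regulatory regions of many of these genes.

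All values are intensities, 1 per probe set and array, from the Affymetrix MAS5 algorithm. Signals under a floor of 246.7 units, the 40th percentile of all values, were raised to it before the log2 ratio of knockout over wild type was taken. There are no replicates, so no difference below was tested and each compares 2 arrays of pooled RNA. Technical error could be judged only from how far probe sets for 1 gene differed, an SD of 0.30 in log2 ratio over 838 genes, and it holds no variation between animals, pools or arrays. Signals of different probe sets cannot be ranked against each other, so members are ordered by their differences and not by their levels. In RNA from whole tissue, changes in macrophage number, in RNA per macrophage and in other cells that express a member cannot be told apart.

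The promoters of 4 members are shown because macrophage genes share a regulator and because the neighbours C1qb and C1qc had unlike ratios. Each of the 4 holds a match to a motif searched below, so they are not a sample of all members. For C1qb the ratio depends on the probe set read, as given below. The RefSeq table (GRCm38.p6) matched 6 of the 10 members: C1qb, C1qc, Cd68, Csf1, Lyz2 and Mrc1. Each sequence runs 5′ to 3′ on the gene's strand, from 250 bases before the start of the gene to 50 bases after it. Capitals mark the PU.1 core GAGGAA on either strand in C1qb, C1qc and Mrc1, and in Csf1 they mark a match to the NF-kB motif, written by name because it holds degenerate letters.
C1qb, chr4:136886151-136886450, minus strand: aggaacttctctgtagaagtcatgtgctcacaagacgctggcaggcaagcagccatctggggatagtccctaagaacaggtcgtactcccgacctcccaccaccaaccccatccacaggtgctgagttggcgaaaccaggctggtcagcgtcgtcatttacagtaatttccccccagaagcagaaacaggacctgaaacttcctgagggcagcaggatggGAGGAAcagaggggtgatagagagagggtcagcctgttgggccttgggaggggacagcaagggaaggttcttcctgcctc
C1qc, chr4:136892865-136893164, minus strand: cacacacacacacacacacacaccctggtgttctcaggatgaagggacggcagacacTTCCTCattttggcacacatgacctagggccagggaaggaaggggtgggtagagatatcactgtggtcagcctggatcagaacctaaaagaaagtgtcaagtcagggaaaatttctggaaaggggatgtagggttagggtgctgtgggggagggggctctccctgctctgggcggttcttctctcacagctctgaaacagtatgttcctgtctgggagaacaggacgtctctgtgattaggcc
Mrc1, chr2:14229164-14229463, plus strand: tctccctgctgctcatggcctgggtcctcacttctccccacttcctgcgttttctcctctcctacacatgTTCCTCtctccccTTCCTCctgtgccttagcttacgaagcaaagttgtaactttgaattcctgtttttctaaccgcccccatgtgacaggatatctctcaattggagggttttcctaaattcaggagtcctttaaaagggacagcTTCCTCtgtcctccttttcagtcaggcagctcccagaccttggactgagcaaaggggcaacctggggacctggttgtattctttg
Csf1, chr3:107760420-107760719, minus strand: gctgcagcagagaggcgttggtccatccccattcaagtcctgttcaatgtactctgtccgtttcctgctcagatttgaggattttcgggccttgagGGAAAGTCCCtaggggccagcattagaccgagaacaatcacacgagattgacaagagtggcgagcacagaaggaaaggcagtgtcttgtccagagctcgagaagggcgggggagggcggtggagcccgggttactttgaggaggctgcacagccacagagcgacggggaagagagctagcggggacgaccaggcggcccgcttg
The PU.1 core was present in the windows of C1qb, C1qc, Cd68 and Mrc1, 4 of the 6, against 28.3% of the 32851 promoters in the table. It began 30 bases before the start in C1qb and 193 bases before it in C1qc, and Mrc1 held it at 3 places, 180, 167 and 35 bases before the start. The NF-kB motif was found in the windows of C1qc and Csf1, 41 and 154 bases before the start, and in 4.51% of all promoters. The AP-1 element TGANTCA, searched on both strands, was found in Cd68 alone of the 6 and in 7.81% of all promoters. Lyz2 held none of the searched motifs. The searched motifs share no letters in these windows, and a match describes the sequence, not a bound site.

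All 10 genes read higher in the knockout pool than in the wild type pool by their brightest probe set. Over all measured genes, 53.9% were higher in the knockout. The median log2 ratio of the 10 was 0.58, against 0.04 over the 5976 measured genes. The members were chosen with earlier results of these data known, so these comparisons are descriptions and not tests. Folds ran from 1.18 for C1qc to 1.96 for Adgre1, so 0 of the 10 were at least 2-fold higher, where 1.54% of measured genes were, and 0 were at least 2-fold lower, where 0.703% were. In order of log2 ratio, Adgre1, C1qb and Csf1 stood at 0.97 to 0.95, Mrc1, Csf1r, Cd14 and Lyz2 at 0.67 to 0.49, and Cd68, C1qa and C1qc at 0.29 to 0.24. No neighbours in that order lay further apart than the SD of 0.30 between probe sets of a gene. Of the 10, 4 lay more than 0.60 above zero, which is 2 SD of the spread between probe sets, and 7.43% of measured genes did so. The other 6 lay within it. The 4 were Adgre1, C1qb, Csf1 and Mrc1, and not all of them held. C1qb passed only by its brighter probe set, since its other measured one was at -1.0. Once a pseudocount was added to the signals, Adgre1 was at 0.59 and Mrc1 at 0.56, both under 0.60. Csf1 at 0.80 and the brighter C1qb probe set at 0.83 stayed above it.

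**Figure D1:**
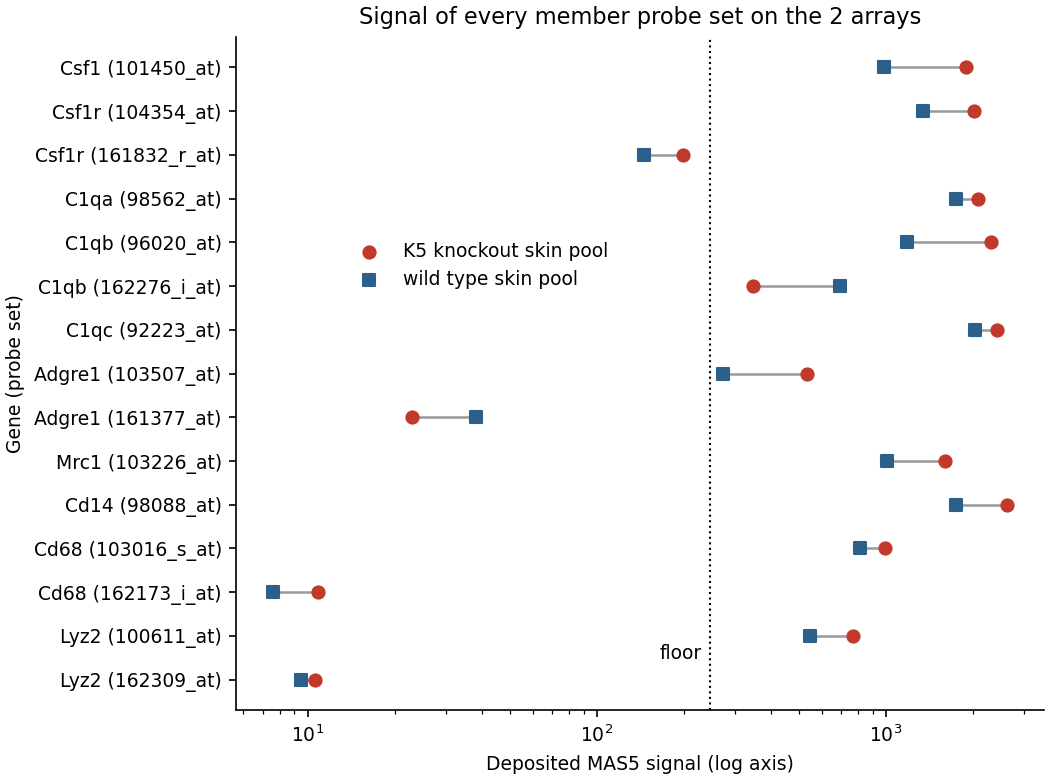
Deposited MAS5 signal of each of the 15 member probe sets on a log axis, with a red circle for the K5 knockout pool, a blue square for the wild type pool and a dotted line at the floor of 246.7. The knockout circle lies to the right of the wild type square for 10 of the 11 probe sets above the floor, and to the left for the second C1qb probe set.

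Of the 15 probe sets, 11 exceeded the floor on each array and 4 were under it on each. Of the 11, 10 were higher in the knockout, as were 54.7% of all measured probe sets with 1 symbol. The 4 were second probe sets of Adgre1, Cd68, Csf1r and Lyz2, and none of these genes has a second measured ratio. The second Adgre1 probe set read 23.0 in knockout skin and 38.2 in wild type skin, and the second Csf1r probe set read 199 in knockout skin and 146 in wild type skin. The second probe sets of Cd68 (10.9 in knockout skin and 7.60 in wild type skin) and Lyz2 (10.6 in knockout skin and 9.50 in wild type skin) were close to the bottom of the scale. Among the members, C1qb alone had more than 1 measured probe set, so for the other 9 genes the difference rests on a single probe set.

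The growth factor and its receptor were both higher in the knockout pool. Csf1, which macrophages need to survive and divide, read 1898 in knockout skin and 982 in wild type skin, a 1.93-fold difference. Csf1r, the receptor through which it acts, read 2012 in knockout skin and 1342 in wild type skin, a 1.5-fold difference. On the log2 scale the ligand's ratio, 0.95, exceeded the receptor's, 0.58, by 0.37. The SD of 0.30 between probe sets of a gene is that of 1 ratio, and a difference between 2 ratios varies more. For Csf1, 1.79% of measured genes had a higher ratio, and for Csf1r 7.65% did.

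The genes of other haematopoietic growth factors and their receptors were divided, with 4 of 7 measured genes higher, 3 lower and 0 past 2-fold. Their median log2 ratio was 0.27. Csf2rb2, a receptor chain of the interleukin-3 and GM-CSF family, was the highest at 0.54 (746 in knockout skin and 513 in wild type skin). Csf2ra, the GM-CSF receptor alpha chain, was the lowest at -0.42 (295 in knockout skin and 394 in wild type skin). Il34, the other known ligand of Csf1r, was not analysed here. Genes that act downstream of Csf1r had a median of 0.12 over 13 measured members, 8 higher and 5 lower, with 0 past 2-fold, and that median was -0.01 after quantile normalization. They ran from Pik3ca, a catalytic subunit of PI3 kinase, at 0.82 (1009 in knockout skin and 571 in wild type skin) to Fyn, a Src family kinase, at -0.71 (1226 in knockout skin and 2012 in wild type skin). A second measured probe set put Pik3ca at 0.21.

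The myeloid transcription factor list had a median of 0.30 over 13 measured genes, 9 higher and 4 lower. Spi1, which encodes PU.1, read 433 in knockout skin and 352 in wild type skin, a log2 ratio of 0.30. The highest ratio was that of Bhlhe40, a basic helix-loop-helix repressor, at 0.90 (1712 in knockout skin and 916 in wild type skin). Irf4, a factor of lymphocytes and of some macrophages and dendritic cells, was the only listed gene past 2-fold, 2.92-fold lower (319 in knockout skin and 933 in wild type skin). That call was lost with the floor raised to the 60th percentile, where the bound was -0.50.

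The 3 C1q genes encode the chains A, B and C that assemble in equal numbers into C1q, the recognition part of the first complement component. RefSeq places them side by side, in the order C1qb, C1qc, C1qa, with no other protein-coding gene between them. C1qa read 2090 in knockout skin and 1752 in wild type skin, a 1.19-fold difference. C1qc read 2415 in knockout skin and 2039 in wild type skin, a 1.18-fold difference. The log2 ratios of these chains, 0.25 and 0.24, differed by 0.01. Both lay within 1 SD of the spread between probe sets, and 27.2% and 28.2% of measured genes had higher ratios.

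C1qb did not follow its neighbours, and its probe sets contradicted each other. The brighter one read 2301 in knockout skin and 1183 in wild type skin, 1.95-fold higher and 0.71 above C1qa on the log2 scale. The dimmer one read 346 in knockout skin and 695 in wild type skin, a log2 ratio of -1.0. It was the only measured member probe set that was lower in the knockout, and the only one past 2-fold. Of measured probe sets with 1 symbol, 0.736% were at least 2-fold lower. The C1qb ratios lay 1.96 apart, a gap reached by 2 of the 838 genes with several probe sets above the floor on each array, C1qb included (0.239%). Opposite signs by themselves were common, in 37.7% of those genes. The suffix of the dimmer set's name, _i_at, is Affymetrix's mark for a set with fewer unique probes than its design asks for. The mean of both C1qb ratios was -0.02, so the direction of C1qb depends on which set is read.

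**Figure D2:**
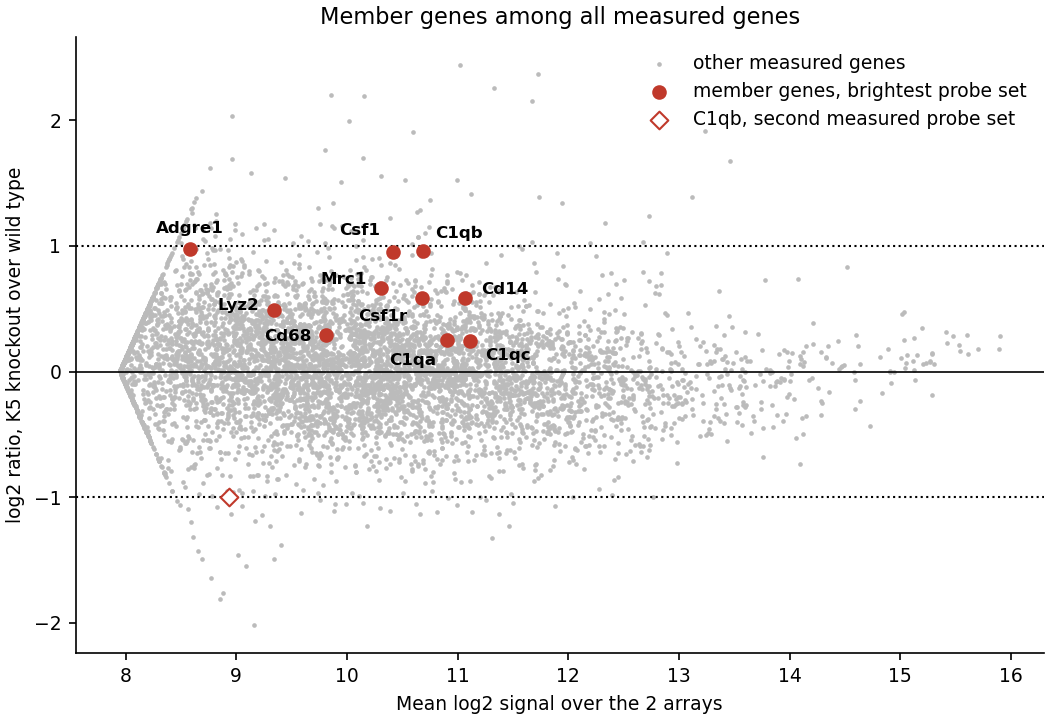
log2 ratio of K5 knockout over wild type against the mean log2 signal of the 2 arrays, with each measured gene as a grey point, the 10 members as red points and the second measured probe set of C1qb as an open diamond; dotted lines mark 2-fold. All red points lie between 0.24 and 0.97, and the diamond lies at -1.0.

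Other complement genes had a median log2 ratio of 0.32, with 8 of 10 measured genes higher, 2 lower and 0 past 2-fold, and 13 more were under the floor on both arrays. Serping1, the inhibitor of the proteases that C1q activates, had the highest ratio, 0.77, and read 2502 in knockout skin and 1469 in wild type skin. The lowest, -0.67, was that of Cd59a, which blocks the membrane attack complex (540 in knockout skin and 863 in wild type skin).

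Of the surface receptors, Adgre1 had the highest ratio of all members, and it was the one that moved most with the settings among the members' brightest probe sets. It encodes F4/80, the classical surface marker of mouse macrophages, and read 535 in knockout skin and 273 in wild type skin, a 1.96-fold difference. The wild type signal was 1.11 times the floor. Adding a pseudocount instead of setting a floor gave a log2 ratio of 0.59, and a floor at the 60th percentile lay above both of its signals. Its relatives among the adhesion G protein-coupled receptors had a median of 0.05 over 5 measured genes, 3 higher and 2 lower with 0 past 2-fold, and -0.05 after quantile normalization. They ran from Celsr2 at 0.47 to Celsr1 at -0.48, both receptors of planar cell polarity.

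Mrc1 encodes the mannose receptor CD206, a lectin of tissue macrophages and of some endothelium. It read 1597 in knockout skin and 1006 in wild type skin, a 1.59-fold difference (log2 ratio 0.67). Of 8 other measured lectin and scavenger receptor genes, 5 were higher, 3 lower and 0 past 2-fold, with a median of 0.11. Stab1, a scavenger receptor of tissue macrophages and sinusoidal endothelium, had the highest ratio, 0.66 (1932 in knockout skin and 1223 in wild type skin). The galectin gene Lgals3, which keratinocytes express as well, had the lowest, -0.24 (7893 in knockout skin and 9332 in wild type skin).

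Cd14, the co-receptor that hands bacterial endotoxin to Toll-like receptor 4, read 2624 in knockout skin and 1750 in wild type skin, a 1.5-fold difference. Its log2 ratio of 0.58 equalled that of Csf1r to 2 decimals. Among 5 other measured genes of endotoxin recognition, 3 were higher, 2 lower and 0 past 2-fold, with a median of 0.36. Lbp, whose product carries endotoxin to CD14, had a log2 ratio of 0.87 (914 in knockout skin and 499 in wild type skin). Irak1, a kinase of the pathway, had one of -0.31 (1170 in knockout skin and 1450 in wild type skin). Monocyte chemoattractant and receptor genes had a median of 0.50, with 6 of 7 measured genes higher, 1 lower and 2 past 2-fold. These were Ccl2 (1118 in knockout skin and 529 in wild type skin, 2.12-fold) and Ccl7 (549 in knockout skin and 199 in wild type skin, at least 2.23-fold since the wild type was under the floor). Neither stayed past 2-fold with a pseudocount, at 0.82 for Ccl2 and 0.84 for Ccl7, or with the raised floor, where Ccl2 had a bound of 0.76 and Ccl7 was not measured.

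Cd68 and Lyz2 encode a lysosomal and an antibacterial protein of phagocytes. Cd68, a lysosomal membrane protein that is abundant in macrophages, read 995 in knockout skin and 813 in wild type skin, a 1.22-fold difference (log2 ratio 0.29). Lyz2, the lysozyme gene of macrophages and neutrophils, read 768 in knockout skin and 548 in wild type skin, a 1.4-fold difference (log2 ratio 0.49). Lyz2 lies next to Lyz1, a close relative, and 1 more probe set is annotated to both and is not counted here. Lysosomal genes at large had a median of 0.00 over 28 measured members, 14 higher and 14 lower with 0 past 2-fold. They ran from the cholesterol transporter gene Npc1 at 0.72 (857 in knockout skin and 519 in wild type skin) to the cathepsin gene Ctsz at -0.73 (1280 in knockout skin and 2119 in wild type skin).

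**Figure D3:**
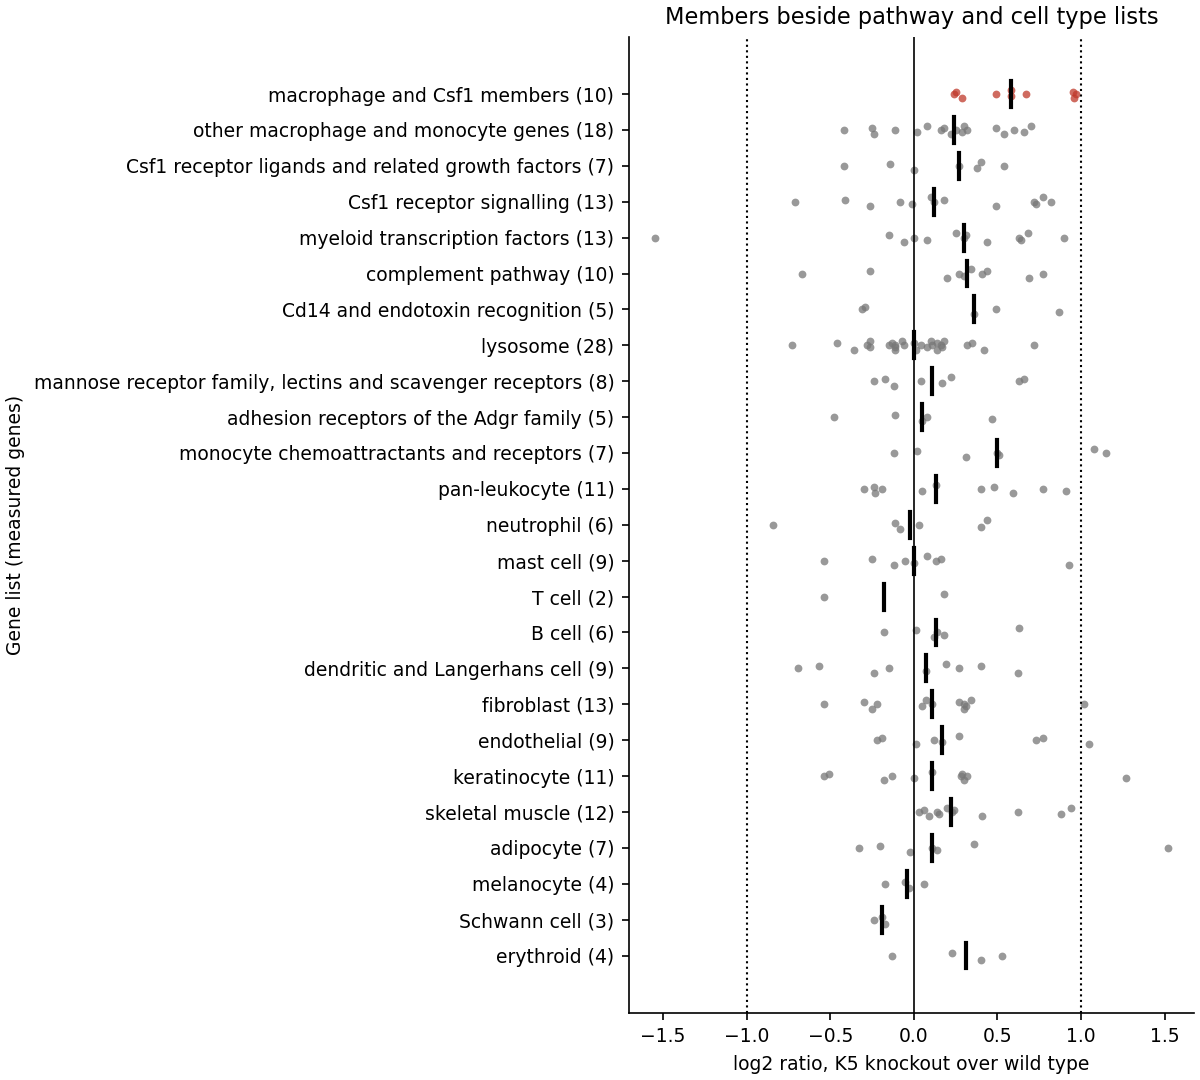
log2 ratios of K5 knockout over wild type for the measured genes of each list, with the 10 members in red at the top, other lists in grey with the members left out, black bars at the medians, dotted lines at 2-fold and the number of measured genes in brackets. The members' median of 0.58 stands above those of the other lists, which run from -0.19 for Schwann cell genes to 0.50 for monocyte chemoattractants. With the floor at the 60th percentile that last median was 0.76, above the members' 0.58. Members and lists were chosen with earlier results of these data known, so the order of the medians is a description and not a test.

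Macrophage and monocyte genes outside the set had a smaller median than the members, with overlapping ratios. Of 30 on the array 18 were measured, 14 higher and 4 lower in the knockout, with 0 past 2-fold and a median of 0.24. Folr2, a folate receptor of tissue macrophages, was the highest at 0.70 (990 in knockout skin and 609 in wild type skin), and Csf2ra was the lowest. The other 12 were under the floor on both arrays and have no ratio, and 9 of them read higher and 3 lower in the knockout. The 3 were Itgam (76.0 in knockout skin and 85.1 in wild type skin), Aif1 (31.7 in knockout skin and 55.2 in wild type skin) and Siglec1 (12.0 in knockout skin and 13.8 in wild type skin). The brightest of the 9 in the knockout were Cybb (224 in knockout skin and 81.3 in wild type skin), Fcer1g (209 in knockout skin and 108 in wild type skin) and Fcgr3 (206 in knockout skin and 97.0 in wild type skin). The share of all genes under the floor that read higher was not computed, so no direction is read from the 9 and 3. Over all non-control probe sets the median signal was also higher in knockout skin, 437 against 403 in wild type skin. The summed signal over the 30 was 28890 in knockout skin and 26643 in wild type skin. Over the 10 members it was 17235 in knockout skin and 11689 in wild type skin. Sums, here and below, are weighted to the brightest probe sets. The largest terms over the 30 were Lgals3 (7893 and 9332) and Hmox1 (5308 and 4766), knockout value first.

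Medians of the marker lists of other cell types ran from -0.19 to 0.31, and their part in the members' differences was not tested. Pan-leukocyte genes had a median of 0.13, with 7 of 11 higher and summed signals over 14 genes of 13388 in knockout skin and 12383 in wild type skin. Among them Lcp1, an actin-bundling protein, was highest at 0.91 and Cd52 lowest at -0.30, and the defining gene Ptprc was under the floor on both arrays (197 in knockout skin and 175 in wild type skin). Neutrophil genes, which share Lyz2, had a median of -0.02, with 3 of 6 higher and sums over 14 genes of 5361 in knockout skin and 5524 in wild type skin. They ran from Elane at 0.44 to Camp at -0.84. Dendritic and Langerhans cell genes had a median of 0.07, which was -0.07 after quantile normalization, with 5 of 9 higher and sums over 12 genes of 4478 in knockout skin and 4272 in wild type skin. Xcr1 was at 0.62 and Epcam at -0.69.

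Mast cell genes had a median that rounded to 0.00 with 4 of 9 higher, from Gata2 at 0.93 to Mcpt1 at -0.54, and summed to 89241 in knockout skin and 84568 in wild type skin over 12 genes. Endothelial genes were listed because some endothelium expresses Mrc1 and Stab1, and they had a median of 0.17 with 7 of 9 higher. Vwf, a clotting protein gene, was the highest of them at 1.05 (600 in knockout skin and 289 in wild type skin, but 0.66 with a pseudocount) and Tie1 the lowest at -0.22, although a second measured Tie1 probe set was at 0.68 (602 in knockout skin and 375 in wild type skin). Their summed signals were 10444 in knockout skin and 9511 in wild type skin over 10 genes. Fibroblast genes had a median of 0.11 with 9 of 13 higher, from Pdgfra at 1.02 (0.68 over its probe sets) to Thy1 at -0.54, and summed to 225065 in knockout skin and 201895 in wild type skin. Skeletal muscle genes were higher in 12 of 12, with a median of 0.22, from Myh8 at 0.94 to Des at 0.03, and summed to 108265 in knockout skin and 92841 in wild type skin over 13 genes. No listed gene of any cell type had a signal of exactly 0.

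The labels could not be checked by the targeted gene, since Krt5 was under the floor on both arrays (81.2 in knockout skin and 46.6 in wild type skin), as were Krt14 and Krt15. No expression level of these keratins is read from signals under the floor, in either pool. The keratinocyte list as a whole had a median of 0.11, with 6 of 11 higher, from Ivl at 1.27 to Trp63 at -0.54, and summed to 227042 in knockout skin and 209702 in wild type skin over 14 genes. Smaller lists gave medians of 0.13 for B cell genes (6 measured), -0.18 for T cell genes (2), 0.11 for adipocyte genes (7), -0.04 for melanocyte genes (4), -0.19 for Schwann cell genes (3) and 0.31 for erythroid genes (4). Their highest ratios were those of Lep at 1.52, Igll1 at a bound of 0.63, Ank1 at 0.53, Cd4 at 0.18, Tyrp1 at 0.06 and Pmp22 at -0.17. Their lowest were those of Thy1 at -0.54, Retn at -0.33, Egr2 at -0.24, Cd79a at a bound of -0.18, Dct at -0.17 and Hbb-b2 at -0.13. The Schwann cell median is the value of Mbp alone. A second measured Mbp probe set was at 0.89 (493 in knockout skin and 266 in wild type skin). With probe sets averaged per gene, the Schwann cell median was -0.17.

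The direction of the members held under the processing choices tried, except for C1qb. In every setting that takes the brightest probe set, each measured member gene was higher in the knockout, and 0 were at least 2-fold higher. The higher floor dropped Adgre1 and the limit to probe sets without a suffix letter dropped Cd68, which left 9 of 9 in each. With probe sets averaged per gene, 9 of 10 were higher and C1qb was at -0.02.

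**Figure D4:**
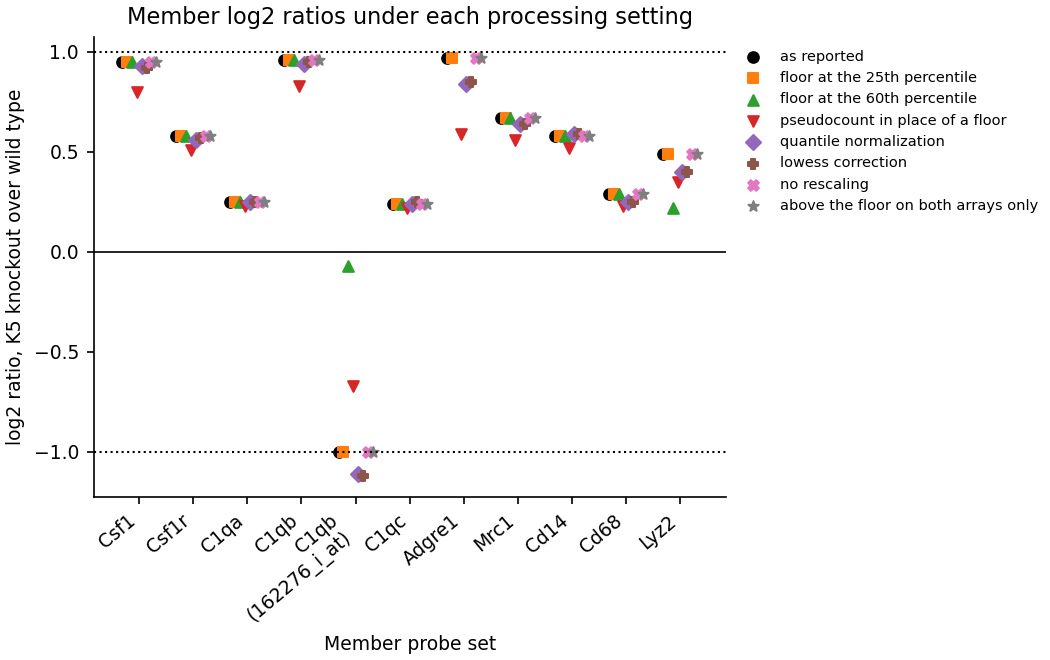
log2 ratio of K5 knockout over wild type for the 11 measured member probe sets, with 1 symbol per processing setting and dotted lines at 2-fold. The ratios of C1qa, C1qc and Cd14 hardly move, Adgre1 runs from 0.59 to 0.97, and the second C1qb probe set runs from -1.12 to -0.07.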

How the data were processed

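The authors deposited linear intensities, 1 per probe set and array, made with MAS5 per the submitters' processing notes. Its version, scaling target and detection calls are not given in the sources used here. Trimmed by 2% at each end, the non-control probe sets averaged 993.9 in knockout skin and 994.2 in wild type skin. Per the labels' protocols, RNA of 6 animals per group was pooled and 1 array was read per pool.

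From the deposited intensities, both arrays were scaled to a common trimmed mean, signals were raised to a floor at the 40th percentile (246.7), and log2 ratios of knockout over wild type were taken with pandas 2.3.3 and numpy 2.4.6. A gene counted as measured when its brightest probe set exceeded the floor on at least 1 array. Where 1 array was under the floor, the fold is a bound. No test was run, since 1 array per group leaves no residual degree of freedom, and the number of arrays limits the precision. The calculation was tested on simulated data, with changes larger than those of the members and only in bright probe sets. That test does not cover differences of the members' size. The platform annotation gave 1 symbol for 10833 of 12422 non-control probe sets, several for 396 and none for 1193. RefSeq (GRCm38.p6) identifiers matched 10817 of the 10833, and 0 symbols needed an update. The annotation of the array gives no coordinates. A planned comparison of protein sequences was not made.

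The members and the gene lists were chosen with earlier results of these data known. The text names every member, every measured pathway gene at least 2-fold different and otherwise the highest and lowest ratio of each list, plus Spi1, macrophage and leukocyte markers under the floor and keratins, chosen after their values were seen. Members were left out of the other lists.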

Additional observations from a re-analysis of the deposited data

Results flagged for a closer look

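A probe set annotated to both Lyz1 and Lyz2, used in no comparison above because it cannot be given to either gene, read 815 in knockout skin and 432 in wild type skin. It is a signal outside the main measurement that was higher in the knockout pool than in the wild type pool, with a log2 ratio of 0.92. Of measured probe sets with 1 symbol, 54.7% were higher in the knockout, and the share with a ratio this high was not computed. The measured probe set annotated to Lyz2 alone had a log2 ratio of 0.49.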

How the results depend on the processing

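The settings tried were a floor at the 25th (86.9) and 60th (659.7) percentile, a pseudocount of 246.7 in place of a floor, quantile normalization, a lowess correction, no rescaling, members exceeding the floor on each array only, probe sets averaged per gene, and probe sets without a suffix letter only. A value counted as moved when it shifted by 0.30 or more on the log2 scale, the SD between probe sets of a gene. The members' median log2 ratio ran from 0.52 with the pseudocount to 0.58, and the count at least 2-fold higher or lower stayed at 0 in each setting. The number of member probe sets above zero stayed within 1.5 times of 10. Of the single probe sets, Adgre1 was at 0.59 with the pseudocount and under the higher floor on both arrays. The second C1qb probe set was at -0.67 with the pseudocount and at a bound of -0.07 with the higher floor, which its knockout signal does not reach. Lyz2 had a bound of 0.22 with the higher floor. The same settings were applied to the gene lists and to listed genes past 2-fold, a choice made after seeing the data. There the T cell median was -0.54 with the higher floor, where it is the value of Thy1 alone. The medians of the monocyte chemoattractants ran from 0.28 to 0.76, and those of the other macrophage genes from 0.15 to 0.32. No paired analysis was possible because each group is 1 pool on 1 array. For the same reason no replicate could be left out.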
